A study of Homo sapiens with 2 samples.

Results

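The genes described are the transcriptional coactivators YAP1 and WWTR1 (which encodes TAZ), their DNA-binding partners TEAD1, TEAD2, TEAD3 and TEAD4, the Hippo kinases LATS1 and LATS2, and the target genes CCN1 and CCN2, measured by split-seq in brain organoids grown from the human embryonic stem cell line H9. They are 10 of the 62704 genes counted in both libraries and were found in both by gene name. The library of cells pooled cerebral organoids (CO) at days 45, 55 and 70, organoids dissociated at day 45 and reaggregated (DISS) at days 48, 55 and 70, and organoids freed of Matrigel at day 13 and embedded in 3% agarose (CONS) at day 55. The library of nuclei held CO of day 45, some isolated from organoids as a whole and some from suspensions of single cells. All organoids came from 1 unmodified cell line, and the deposited tables give 1 sample name per library, so CO, DISS, CONS and the days could not be separated and each library was 1 sample.

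In the Hippo pathway, the kinases STK3 and STK4 with SAV1 activate LATS1 and LATS2, which phosphorylate YAP and TAZ and keep them out of the nucleus. Unphosphorylated YAP and TAZ enter the nucleus and, having no DNA-binding domain of their own, act through TEAD factors on genes such as CCN1, CCN2 and LATS2. Radial glia (RG), the neural stem cells that line the ventricles of the developing cortex, are known to express YAP, and its loss accompanies neuronal differentiation. Transcript counts give the level of the mRNA only and say nothing of where the protein is or whether it is phosphorylated.

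In GENCODE release 44 on GRCh38, YAP1 lies at chr11:102110447-102233424 on the plus strand and WWTR1 at chr3:149517235-149736714 on the minus strand. TEAD1 is at chr11:12674421-12944737 (plus), TEAD2 at chr19:49340595-49362457 (minus), TEAD3 at chr6:35473597-35497079 (minus) and TEAD4 at chr12:2959330-3040676 (plus). LATS1 is at chr6:149658153-149718105 (minus) and LATS2 at chr13:20973036-21061586 (minus). CCN1, at chr1:85580761-85584589 (plus), and CCN2, at chr6:131948176-131951372 (minus), are short genes of 3829 and 3197 bases, of which 96.6% and 73.1% are exonic. TEAD1 spans 270317 bases, of which 3.96% are exonic. CCN2 lies inside LINC01013, a long non-coding RNA on the opposite strand, and TEAD2 overlaps CD37 and DKKL1, also on the opposite strand. Whether the counting used strand is not given in the sources used here, so reads of such pairs may not be told apart.

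The promoters of CCN2 and YAP1 are shown because, of the 7 member genes with a RefSeq promoter on GRCh38.p14 (10 promoters), these held the letters GGAATG, the core of the known TEAD motif, on either strand (CATTCC on the other). The 250 bases before the transcription start are given 5′ to 3′ on the gene's strand, with GGAATG in capitals. CCN2 is chr6:131951373-131951622 and YAP1 is chr11:102110197-102110446.
CCN2: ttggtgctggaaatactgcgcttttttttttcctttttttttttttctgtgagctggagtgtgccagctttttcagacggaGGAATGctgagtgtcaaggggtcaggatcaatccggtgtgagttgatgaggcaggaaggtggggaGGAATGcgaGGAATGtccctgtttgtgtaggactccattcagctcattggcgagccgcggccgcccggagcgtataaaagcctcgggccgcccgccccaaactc
YAP1: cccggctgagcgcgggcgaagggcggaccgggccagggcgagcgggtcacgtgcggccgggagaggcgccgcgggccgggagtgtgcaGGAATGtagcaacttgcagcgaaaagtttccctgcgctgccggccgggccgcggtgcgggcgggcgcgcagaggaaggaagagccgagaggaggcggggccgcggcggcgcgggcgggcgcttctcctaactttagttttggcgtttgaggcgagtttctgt
CCN2 held 3 matches, which began 169, 104 and 95 bases before the start, and YAP1 held 1, which began 162 bases before it. Of all 35116 promoters of this length, 4175 (11.9%) held at least 1 match and 29 (0.0826%) held 3 or more. The promoters of WWTR1, TEAD2, TEAD3, LATS1 and LATS2 held none in this window. A match is a description of the letters, and binding was not measured.

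A barcode was used if it held over 500 genes and over 1000 transcripts, of which the mitochondrial share was no higher than 20%. This left 20178 of 1303455 barcodes of the cells (median 2615 transcripts) and 14228 of 197446 of the nuclei (median 3890). Levels are counts summed over all barcodes of a type and scaled to a total of 1000000 transcripts (CPM), with 95% exact Poisson intervals that cover counting error only, and no test between groups was possible. The barcode is a combination of wells, and combinations recurred between sub-libraries of the same library, which may therefore hold cells in common. In the cells, 6574 barcodes belonged to 2642 recurring combinations, and in the nuclei 1272 to 636. With only the deepest barcode of each combination kept, no count of members higher by the size rule moved by more than 1.5 times. The 2 libraries had 533 combinations in common. The barcodes came from 48 wells of the initial barcoding round in the cells and 12 in the nuclei, whose conditions are unknown. Well values are therefore given as the lowest, the median and the highest among wells with at least 20 barcodes of a type.

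Clusters were named from marker genes, with the members and the pathway genes left out of the clustering. The dividing RG-like name required the dividing markers only. In the cells, RG-like barcodes numbered 1856, dividing RG-like 4034, newborn neuron-like 1210, excitatory neuron-like 1532, Cajal-Retzius-like 162, hem and choroid plexus-like 981 and choroid plexus-like 1761, and 8642 barcodes stayed unnamed. In the nuclei, RG-like barcodes numbered 3813, dividing RG-like 2137, intermediate progenitor-like 486, newborn neuron-like 745, excitatory neuron-like 3344, Cajal-Retzius-like 871, hem and choroid plexus-like 936, choroid plexus-like 353 and unnamed 1543. Different kinds of cluster made up the choroid plexus-like type. In the nuclei it was 1 cluster led by cilium genes such as TEKT1, whereas in the cells a cluster of this kind held 474 of its barcodes and a shallow cluster, with a median of 1502 transcripts and led by TTR, held 1155. The RG-like nuclei included a cluster of 957 barcodes led by EGR1, JUN and PLK2, 46.2% of them from 1 well. A further cluster of 279, led by heat shock genes, had 19.7% from its largest well. Another RG-like cluster, of 973 nuclei, had 45.9% from 1 well, whereas the largest well held 2371 of all 14228 kept nuclei. A cluster of 358 was led by the hypoxia genes PFKFB4 and SLC2A1 and had the outer RG marker LIFR among its leading genes. No RG-like or excitatory neuron-like cluster of the nuclei had a marker of its own list among its leading genes. Of the Cajal-Retzius-like nuclei, 764 lay in a cluster that had the inhibitory neuron gene GAD1 among its leading genes, and the newborn neuron-like nuclei were a cluster with the Cajal-Retzius marker EBF2, but no marker of its own lists, among its leading genes.

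YAP1 was higher in the RG-like, dividing RG-like and both choroid plexus types of either library than in the neuronal types. In the cells it reached 211 CPM in RG-like barcodes (203 to 219) and 168 in dividing RG-like ones (164 to 172). The choroid plexus-like type had 234 CPM (225 to 244) and the hem and choroid plexus-like type 217 (208 to 225), whose interval overlaps that of RG-like barcodes. Newborn neuron-like, excitatory neuron-like and Cajal-Retzius-like barcodes held 50.6, 51.5 and 43.8 CPM. The order in the nuclei ran from choroid plexus-like (271, 255 to 288) through RG-like (215, 207 to 223), hem and choroid plexus-like (207) and dividing RG-like (196) to intermediate progenitor-like nuclei (89.3). Below them stood Cajal-Retzius-like (45.5), newborn neuron-like (28.5) and excitatory neuron-like nuclei (13.4, 11.7 to 15.4). Intermediate progenitors, the transit-amplifying cells between RG and neurons, thus lay between their parent and daughter types in level. The choroid plexus-like level of the cells was uneven, with 304.6 CPM (291 to 319) in the cilium cluster, and 131 (117 to 145) in the shallow cluster and 120 (101 to 141) in the remaining one, against 132 in barcodes of 10 to 100 transcripts.

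**Figure D1:**
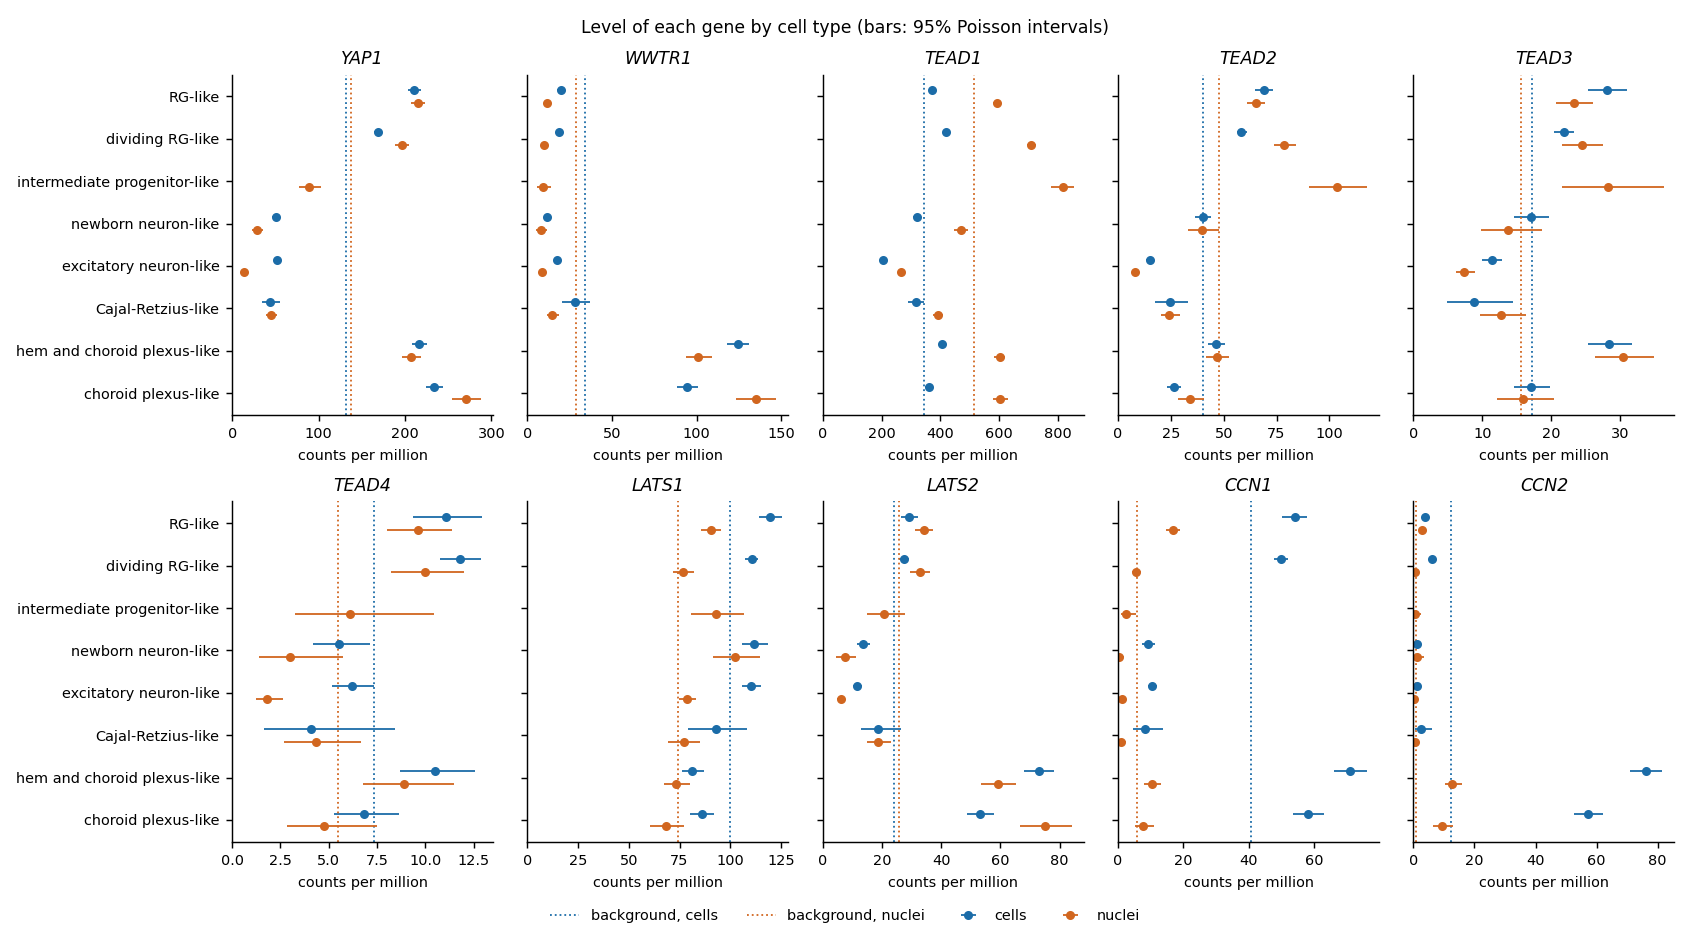
Level of each member in CPM (horizontal axis) by marker-defined type (vertical axis) in the cells and the nuclei. Points are sums over all barcodes of a type, bars are 95% exact Poisson intervals, and dotted lines are the level in barcodes of 10 to 100 transcripts. YAP1 lies above 160 CPM in RG-like, dividing RG-like and both choroid plexus types, and at 51.5 CPM in excitatory neuron-like cells and 13.4 in the nuclei.

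Between wells, RG-like and excitatory neuron-like levels of YAP1 did not overlap in either library. In the cells, the wells ranged from 146 to 297 CPM with a median of 201 in RG-like barcodes, and from 11.5 to 96.0 with a median of 22.5 in excitatory neuron-like ones. In the nuclei the RG-like wells ranged from 119 to 245 (median 184) and the excitatory neuron-like wells from 8.76 to 33.7 (median 13.3). Summed over wells, YAP1 was 4.10-fold higher in RG-like than in excitatory neuron-like cells (log2 ratio 2.03, 1.93 to 2.14, 2979 against 1100 counts), with RG-like higher in 15 of 15 wells. In the nuclei it was 15.99-fold higher (log2 4.00, 3.80 to 4.21, 2890 against 214 counts), in 12 of 12 wells.

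YAP1 was also detected in more barcodes of progenitors at equal depth. After each barcode was thinned to 1000 transcripts, 19.0% of RG-like cells (exact binomial interval 17.2 to 20.8) and 2.68% of excitatory neuron-like cells (1.93 to 3.61) held a YAP1 count. The shares were 16.9% (15.7 to 18.1) and 0.987% (0.680 to 1.38) in the nuclei. Without thinning they were 59.2% and 19.8% in the cells and 41.5% and 4.90% in the nuclei, at median depths of 5311, 7437, 2763 and 3902.5 transcripts.

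The YAP1 counts of excitatory neuron-like cells stood at 38.9% of the level in barcodes of 10 to 100 transcripts, the background used here. SOX2, a progenitor gene, stood at 44.4% of that level in these cells and TTR, a choroid plexus gene, at 39.8%, whereas NEUROD6, a neuronal gene, stood at 205%. In excitatory neuron-like nuclei the same values were 9.75% for YAP1, 13.4% for SOX2, 17.2% for TTR and 317% for NEUROD6. The level of YAP1 in neurons therefore lay no higher, relative to this background, than those of SOX2 and TTR, and the part of free RNA in it was not tested. SOX2, TTR and NEUROD6 are among the markers from which the types were named, so their values depend in part on the naming. How far this background is free RNA was not tested either, and over all kept cells YAP1 stood at 100.6% of it. Median of ratios scaling lowered the log2 ratio of YAP1 to 1.91 in the cells and 3.77 in the nuclei. The log2 ratio in the cells was 2.98 with thinned barcodes, 2.87 at a finer clustering (resolution 2) and 2.68 with another seed. It was 2.91 when members and pathway genes were allowed among the variable genes. No member was then among them in the cells, so the members' own counts did not enter that clustering.

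WWTR1 had another pattern, with high levels in the choroid plexus types and low levels in progenitors and neurons alike. In the cells it was at 124 CPM in the hem and choroid plexus-like type (118 to 131) and 94.4 in the choroid plexus-like type (88.4 to 100.6). The Cajal-Retzius-like type had 28.0 CPM, and RG-like (19.6, 17.4 to 22.1), dividing RG-like (18.4), excitatory neuron-like (17.6, 15.9 to 19.5) and newborn neuron-like cells (11.4) followed, of which RG-like, dividing RG-like and excitatory neuron-like had overlapping intervals. In the nuclei, WWTR1 stood at 135 CPM in the choroid plexus-like type (123 to 147) and 101 in the hem and choroid plexus-like type (93.5 to 109). The other types held between 7.70 CPM in newborn neuron-like and 14.5 in Cajal-Retzius-like nuclei.

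RG-like and excitatory neuron-like barcodes differed little in WWTR1, with log2 ratios of 0.16 (−0.07 to 0.38) in the cells and 0.42 (0.08 to 0.76) in the nuclei. RG-like was higher in 10 of 15 wells of the cells and 6 of 12 of the nuclei, and the ranges of the wells overlapped (5.43 to 54.0 CPM and 6.13 to 31.5 CPM in the cells). WWTR1 in excitatory neuron-like and RG-like cells stood at 51.6% and 57.5% of the level in barcodes of 10 to 100 transcripts, and at 40.2% in RG-like nuclei. TTR and NEUROD6, genes of other types that also served as naming markers, stood at 43.4% and 18.3% in RG-like cells. In RG-like nuclei they stood at 15.3% and 14.3%. The part of free RNA in the level of WWTR1 was not tested.

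Choroid plexus-like wells, by contrast, ranged from 41.9 to 195 CPM of WWTR1 in the cells, with a median of 116, and RG-like wells from 5.43 to 54.0 with a median of 18.1, with some overlap. In the nuclei they ranged from 101 to 164 with a median of 129, and RG-like wells from 6.94 to 21.3 with a median of 12.5, without overlap. WWTR1 was 4.81-fold higher in choroid plexus-like than in RG-like cells (log2 2.27, 2.07 to 2.47, 943 against 277 counts) and 11.6-fold higher in the nuclei (3.54, 3.28 to 3.81, 511 against 156 counts). It was higher in 9 of 9 and 5 of 5 wells. The size in the cells moved with depth, to a log2 ratio of 1.64 with thinned barcodes, and with the clustering. With another seed or with the members allowed among the variable genes, 474 and 469 of the 474 barcodes of the cilium cluster joined the hem and choroid plexus-like type, and the log2 ratio was 1.24 and 1.15. At a coarser clustering (resolution 0.5), 463 of them joined it and 1095 barcodes of the shallow cluster lost their name, which left 113 choroid plexus-like barcodes, 112 of them from a cluster that came mostly from 1 well, and a ratio of 1.68.

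YAP1 itself had log2 ratios of choroid plexus-like to RG-like of 0.15 (0.07 to 0.23) in the cells, whose choroid plexus-like clusters lay on both sides of the RG-like level, and 0.34 (0.23 to 0.44) in the nuclei. Its ratio in the cells was −0.71 with the other seed, −0.71 with the members allowed among the variable genes, −0.79 at the coarser clustering with its 113 barcodes and −0.32 with thinned barcodes. Of the counts of YAP1 and WWTR1 together, WWTR1 made up 8.51% in RG-like cells (exact binomial interval 7.57 to 9.52) and 5.12% in RG-like nuclei (4.37 to 5.96). Its share was 28.7% (27.2 to 30.3) and 33.2% (30.9 to 35.6) in the choroid plexus-like type, and 25.5% and 39.2% in excitatory neuron-like barcodes, in which both genes were low.

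**Figure D2:**
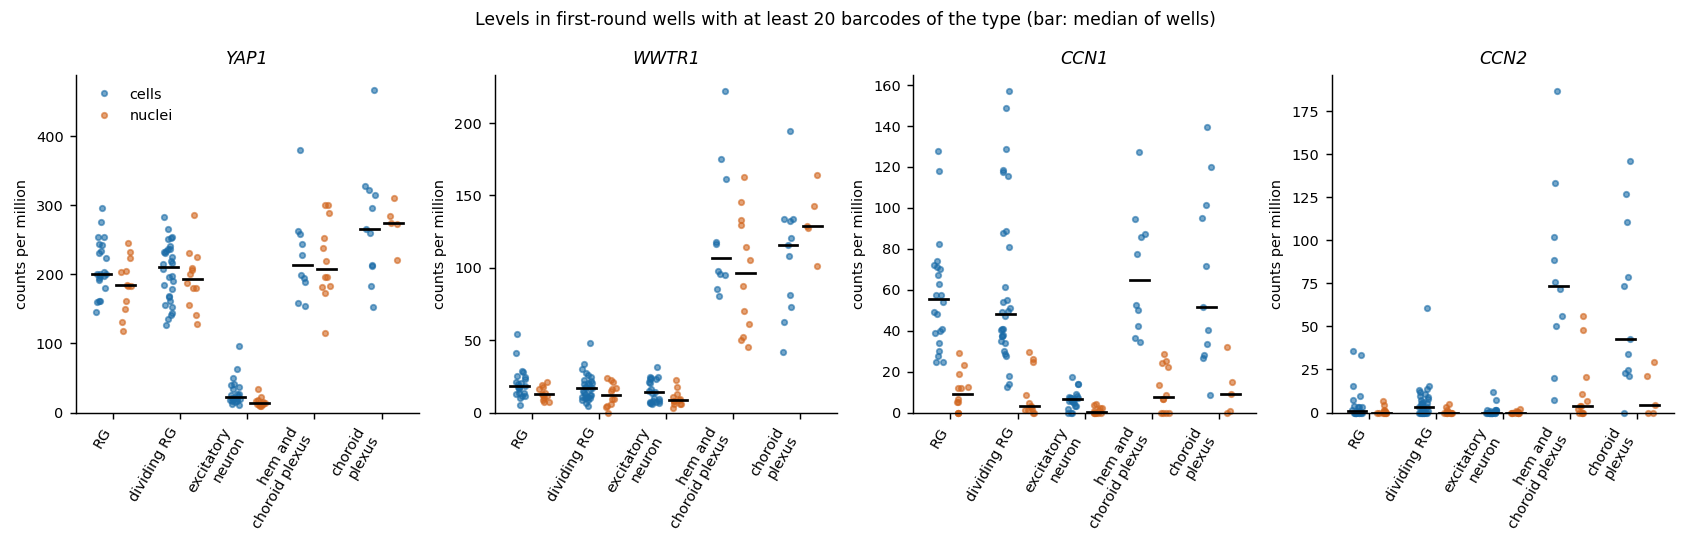
Levels of YAP1, WWTR1, CCN1 and CCN2 in CPM (vertical axis) in the wells of the initial barcoding round, by type (horizontal axis), for wells with at least 20 barcodes of the type. Each point is a well of unknown condition and each bar the median. RG-like wells of YAP1 (146 to 297 CPM in the cells) lie above all excitatory neuron-like wells (11.5 to 96.0 CPM), and choroid plexus-like wells of CCN2 range from 0 to 146 CPM.

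The 4 TEAD genes encode closely related DNA-binding factors through which YAP and TAZ act. TEAD1 was present in every type. In the cells it ranged from 203 CPM in excitatory neuron-like (197 to 210) to 421 in dividing RG-like barcodes, with RG-like at 371 (361 to 381). In the nuclei it ranged from 267 in excitatory neuron-like (259 to 275) through 593 in RG-like (580 to 606) and 709 in dividing RG-like to 816 in intermediate progenitor-like nuclei. TEAD1 was 1.82-fold higher in RG-like than in excitatory neuron-like cells (log2 0.87, 0.81 to 0.93) and 2.22-fold higher in the nuclei (1.15, 1.10 to 1.21), in 15 of 15 and 12 of 12 wells. Scaling by the median of ratios put the nuclear value at 0.92, under the 2-fold limit of the size rule. In choroid plexus-like barcodes TEAD1 was close to its RG-like level, with log2 ratios of −0.04 (−0.10 to 0.02) in the cells, which that scaling turned to 0.07, and 0.03 (−0.04 to 0.10) in the nuclei.

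TEAD2 was higher in RG-like than in excitatory neuron-like barcodes of both libraries. In the cells, RG-like wells ranged from 32.7 to 116 CPM (median 68.5) and excitatory neuron-like wells from 1.75 to 44.9 (median 13.1), with some overlap. In the nuclei the ranges were 48.4 to 149 (median 85.7) and 2.02 to 26.2 (median 7.11), without overlap. Over all barcodes, TEAD2 was 4.58-fold higher in RG-like cells (68.9 against 15.03 CPM, log2 2.20, 2.01 to 2.38) and 7.94-fold higher in RG-like nuclei (65.3 against 8.22 CPM, log2 2.99, 2.72 to 3.26), with RG-like higher in every well compared. With thinned barcodes the log2 ratio in the cells was 3.01, and with the background profile subtracted at 10% that in the nuclei was 4.13. Intermediate progenitor-like nuclei held 103 CPM, and newborn neuron-like barcodes held 39.99 CPM in the cells and 39.8 in the nuclei, between the RG-like and excitatory neuron-like levels.

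TEAD2 was also lower in choroid plexus-like than in RG-like barcodes, by 2.61-fold in the cells (26.4 against 68.9 CPM, log2 −1.38, −1.58 to −1.19, lower in 9 of 9 wells) and 1.92-fold in the nuclei (34.1 against 65.3 CPM, log2 −0.94, −1.22 to −0.67, lower in 5 of 5). At the coarser clustering the log2 ratio in the cells was −2.55, but the choroid plexus-like type there was 113 barcodes that came mostly from 1 well. The genes that overlap TEAD2 on the other strand had 341 (CD37) and 826 (DKKL1) counts in the kept cells, against 6686 for TEAD2. TEAD2 made up 14.4% of the counts of the 4 TEAD genes in RG-like cells (13.6 to 15.2), 6.37% in excitatory neuron-like (5.71 to 7.08) and 6.42% in choroid plexus-like cells (5.69 to 7.22). The same shares were 9.45%, 2.89% and 5.17% in the nuclei, and 10.8% in intermediate progenitor-like nuclei.

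**Figure D3:**
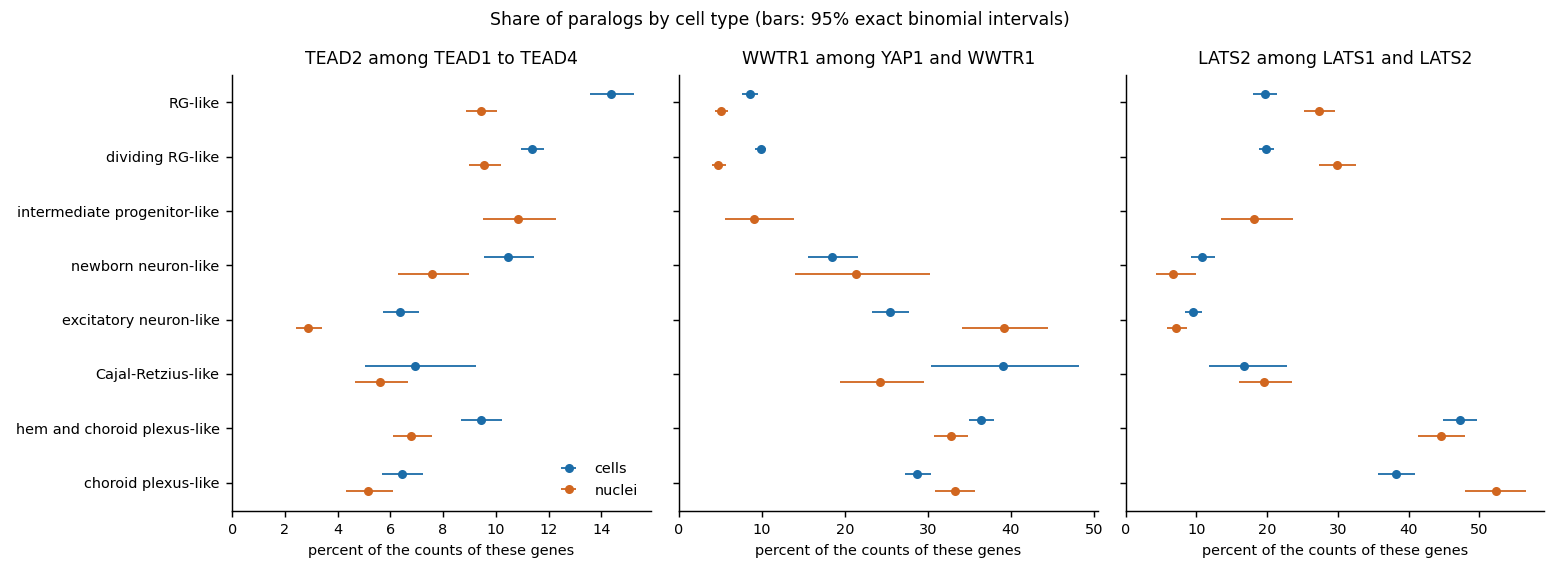
Share in percent (horizontal axis) of TEAD2 among the counts of TEAD1 to TEAD4, of WWTR1 among those of YAP1 and WWTR1, and of LATS2 among those of LATS1 and LATS2, by type (vertical axis) in both libraries, with 95% exact binomial intervals as bars. The LATS2 share is 38.2% and 52.3% in the choroid plexus-like type of the cells and the nuclei, and 9.54% and 7.17% in the excitatory neuron-like type.

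TEAD3 and TEAD4 had few counts. TEAD3 was at 28.0 CPM in RG-like and 11.4 in excitatory neuron-like cells (2.46-fold, log2 1.30, 1.07 to 1.54, higher in 15 of 15 wells), and at 23.3 and 7.41 CPM in the nuclei (3.14-fold, log2 1.65, 1.34 to 1.97, 12 of 12 wells). TEAD4 was at 11.0 (9.38 to 12.9) and 6.18 CPM (5.17 to 7.33) in the same types of the cells, a log2 ratio of 0.84 (0.49 to 1.18) under the size rule, and at 9.59 and 1.82 CPM in the nuclei (5.27-fold, log2 2.40, 1.81 to 3.03). Both genes thus followed the direction of TEAD2 between progenitors and neurons. With thinned barcodes, the ratios of TEAD3 and TEAD4 in the cells were 2.19 and 1.20. In choroid plexus-like barcodes TEAD3 was lower than in RG-like ones by less than the size rule (log2 −0.72 in the cells and −0.55 in the nuclei), and the nuclear value was −0.08 at the coarser and 0.17 at the finer clustering. In the cells it was past the rule with thinned barcodes (−1.09) and for the 113 barcodes, mostly of 1 well, of the coarser clustering (−1.25). TEAD4 had a log2 ratio of −0.70 (−1.13 to −0.28) in the cells, lower in 8 of 9 wells, and was past the rule with thinned barcodes (−1.57). At the coarser clustering it could not be compared in a useful way, since the cluster from 1 well that made up the type held 1 count of TEAD4. In the nuclei TEAD4 was 2.02-fold lower (18 against 129 counts, log2 −1.01, −1.81 to −0.30), a value close to the limit of the rule that was −0.20 at the coarser clustering, 0.02 at the finer one and −0.11 with thinned barcodes. At these clusterings no separate hem and choroid plexus-like type was found in the nuclei, and the choroid plexus-like type took in 935 or 518 of its nuclei and held 1294 or 871 barcodes.

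LATS1 and LATS2, the kinases that phosphorylate YAP and TAZ, differed from each other in pattern. LATS1 was similar in RG-like and excitatory neuron-like barcodes, at 120 and 110.5 CPM in the cells (log2 0.12, 0.02 to 0.21, higher in 8 of 15 wells) and 90.5 and 78.8 CPM in the nuclei (0.20, 0.08 to 0.31, higher in 10 of 12). Scaling by the median of ratios turned both directions, to −0.01 and −0.04. The median gene itself shifted by a log2 ratio of 0.12 in the cells and 0.23 in the nuclei in this contrast, −0.11 and −0.25 between choroid plexus-like and RG-like, −0.06 and −0.13 between dividing and other RG-like, and −0.21 between the RG-like nuclei and cells.

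LATS2, which is also a YAP target, was higher in RG-like than in excitatory neuron-like barcodes and, among the named types, highest in the choroid plexus types. It was at 29.2 CPM in RG-like cells (26.5 to 32.2) and 11.7 in excitatory neuron-like cells (10.3 to 13.2), a 2.51-fold difference (log2 1.33, 1.10 to 1.56) in the direction of 13 of 15 wells. In the nuclei the levels were 34.1 (31.1 to 37.4) and 6.09 CPM (4.94 to 7.43), 5.60-fold apart (2.49, 2.17 to 2.82, in 11 of 12 wells). In the hem and choroid plexus-like type LATS2 reached 73.0 CPM in the cells and 59.2 in the nuclei, above the RG-like level. The choroid plexus-like type had 53.2 CPM in the cells (48.8 to 58.0) and 74.97 in the nuclei (66.5 to 84.2), 1.82-fold (log2 0.86, 0.68 to 1.05) and 2.20-fold (1.14, 0.92 to 1.35) the RG-like levels. The value in the cells was 1.06, past the rule, without the shallow cluster. For the 113 barcodes, mostly of 1 well, of the coarser clustering it was 1.03. It was 0.51 with the other seed and 0.38 with the members allowed among the variable genes. The value in the nuclei was 0.86, under the rule, with thinned barcodes. For the contrast with neurons, LATS2 stood at 2.18 in the cells and 1.82 in the nuclei with thinned barcodes, at 1.95 in the cells with the members allowed among the variable genes, and at 3.17 in the nuclei with the background profile subtracted.

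CCN1 and CCN2 encode secreted matricellular proteins and are widely used readouts of YAP and TAZ activity. CCN1 was higher in progenitors than in neurons. In the cells, RG-like wells ranged from 24.5 to 128 CPM (median 55.6) and excitatory neuron-like wells from 0 to 17.2 (median 6.45), without overlap. The sums were 54.0 CPM (50.2 to 58.0) and 10.5 CPM (9.20 to 12.001), 5.13-fold apart (log2 2.36, 2.14 to 2.58), with RG-like higher in 15 of 15 wells. With the members allowed among the variable genes, or with the background profile subtracted at 10%, the log2 ratio was 2.95. The 8 immediate-early genes that were followed as signs of stress summed to 572 CPM in the RG-like and 197 in the excitatory neuron-like cells, and their part in this difference was not tested.

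CCN1 was low in the nuclei, at 16.7 CPM in RG-like (14.6 to 19.1) and 1.13 in excitatory neuron-like nuclei (0.670 to 1.79), with a ratio of 14.8-fold (log2 3.89, 3.19 to 4.67, 225 against 18 counts). RG-like was higher in 9 wells, lower in 1 and tied in 2, and its wells ranged from 0 to 29.0 CPM. The RG-like level was uneven across clusters. The cluster led by EGR1, JUN and PLK2 held 22.6 CPM of CCN1 and the cluster led by heat shock genes 59.5, whereas the other 3 held 5.18, 10.6 and 3.54. The summed level of 8 immediate-early genes, which are induced within minutes of stimulation or stress, was 521 and 786 CPM in the former clusters and 84.9, 68.7 and 79.9 in the latter. Without the clusters led by immediate-early and heat shock genes, the log2 ratio to neurons was 2.67 for CCN1. With thinned barcodes it was 2.93, with the background profile subtracted 4.87, and without the neuronal cluster led by hypoxia and heat shock genes it was 4.49. The part of the immediate-early clusters in the level of CCN1 was not tested.

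**Figure D4:**
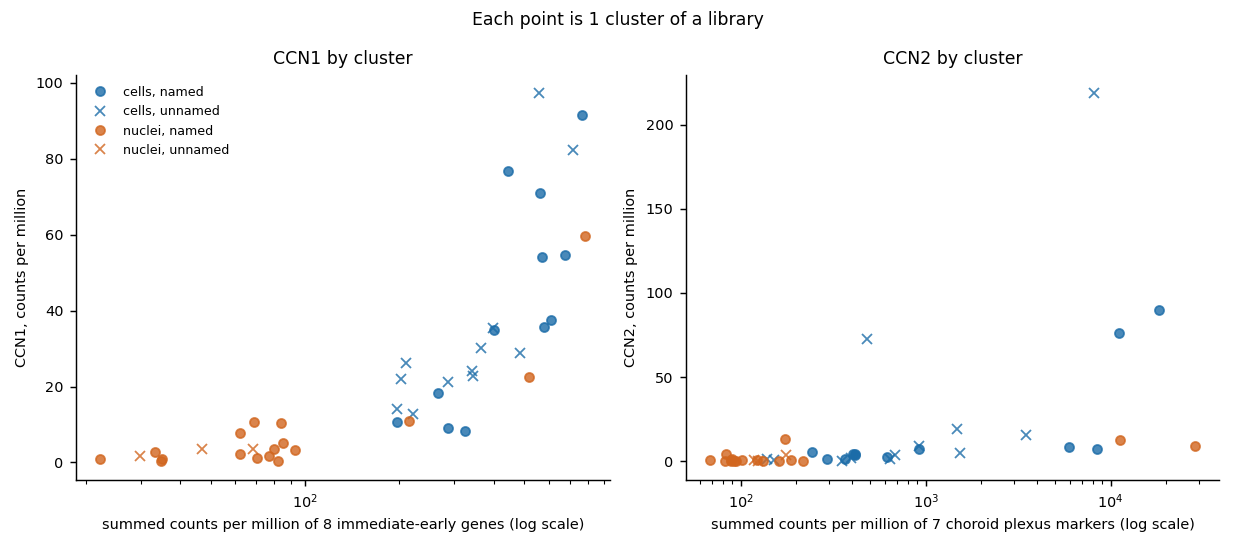
CCN1 level against the summed level of 8 immediate-early genes, and CCN2 level against the summed level of 7 choroid plexus markers, all in CPM with logarithmic horizontal axes. Each point is a cluster of the cells or the nuclei, with crosses for clusters that took no name. Among RG-like nuclei, the clusters with immediate-early sums of 521 and 786 CPM hold 22.6 and 59.5 CPM of CCN1, and the others at most 10.6.

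Of the types of the cells, CCN2 was highest in the choroid plexus types. It was at 76.1 CPM in the hem and choroid plexus-like type (71.1 to 81.4) and 57.2 in the choroid plexus-like type (52.6 to 62.1), against 3.75 in RG-like (2.81 to 4.91), 6.06 in dividing RG-like and 1.08 in excitatory neuron-like cells (0.682 to 1.62). Hem and choroid plexus-like wells ranged from 7.52 to 187 CPM (median 73.7), choroid plexus-like wells from 0 to 146 (median 42.6) and RG-like wells from 0 to 36.0 (median 0.749). The ranges of both choroid plexus types overlapped with that of RG-like wells. The RG-like level was 30.2% of that in barcodes of 10 to 100 transcripts. CCN2 was 15.3-fold higher in choroid plexus-like than in RG-like cells (log2 3.93, 3.52 to 4.37, 572 against 53 counts), in 8 of 9 wells.

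The high level sat in part of the choroid plexus-like cells. The cilium cluster held 89.8 CPM of CCN2, 126 of WWTR1 and 76.9 of CCN1, whereas the shallow cluster held 8.29 of CCN2 and 39.7 of WWTR1, and a cluster of 132 barcodes, 93.9% of them from 1 well, held 7.44 and 62.8. CCN2 counts were found in 175 of the 1761 choroid plexus-like barcodes (9.94%) against 39 of the 1856 RG-like ones (2.10%), and a single barcode held 50 of the 572 counts (8.74%). The log2 ratio was 1.09 with the other seed and 0.85 with the members allowed among the variable genes, the settings in which the cilium cluster left the type, 1.02 for the 113 barcodes of the coarser clustering, and 3.21 with a mitochondrial limit of 10% and 3.08 with thinned barcodes. The ratio of CCN1 was 0.11 (−0.05 to 0.26), with the choroid plexus-like type higher in 2 of 9 wells and lower in 7. It became −0.86, −0.76 and −1.47 in the same order, −0.21 with thinned barcodes and −0.08 with the mitochondrial limit of 10%.

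In the nuclei, CCN2 had 182 counts in all. It was at 12.8 CPM in the hem and choroid plexus-like type (10.2 to 15.8) and 9.24 in the choroid plexus-like type (6.44 to 12.8), against 2.90 in RG-like nuclei (2.06 to 3.96). Within the RG-like nuclei, the heat shock cluster held 13.2 CPM (6.34 to 24.3, 10 counts), no lower than the choroid plexus types, and the cluster led by EGR1, JUN and PLK2 held 4.52 (2.96 to 6.63). The ratio of choroid plexus-like to RG-like was 3.19-fold (log2 1.67, 0.97 to 2.37, 35 against 39 counts), higher in 3 wells, lower in 1 and tied in 1. The 35 counts came from 19 of 353 nuclei, of which 1 held 6 counts (17.1%). Thinned barcodes put the log2 ratio at 0.26, the coarser clustering at 2.72, and leaving out the immediate-early and heat shock clusters of RG-like nuclei at 4.42.

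Between RG-like and excitatory neuron-like nuclei the CCN2 counts were 39 and 5 (9.24-fold, log2 3.21, 1.86 to 4.91), with 7 of 12 wells tied, and without those clusters the log2 ratio was 0.46. It was 2.25 at the coarser clustering and 1.396 with thinned barcodes. In the cells they were 53 and 23 (3.49-fold, log2 1.80, 1.07 to 2.57), with RG-like higher in 5 of 15 wells, lower in 5 and tied in 5, and 4.16 on the log2 scale with the background profile subtracted. The wells of the cells gave no common direction for CCN2 in this contrast. LINC01013, which spans CCN2 on the other strand, had 2371 counts in the kept cells against 1912 for CCN2, and 1813 against 182 in the nuclei. It was at 22.9 CPM in choroid plexus-like and 13.6 in RG-like cells, and at 37.5 and 19.3 CPM in the nuclei.

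Markers of other cell types were summed in the choroid plexus types beside the levels of WWTR1 and CCN2. The 7 mesenchyme markers summed to 26.1 CPM in RG-like, 152 in hem and choroid plexus-like and 89.2 in choroid plexus-like cells, and to 26.9, 162 and 100.04 CPM in the nuclei. PDGFRB alone gave 71.0 of the 89.2 CPM and 91.1 of the 100.04 CPM. The other markers ranged from 0.300 (LUM) to 7.80 CPM (COL1A2) in choroid plexus-like cells and from 0 (COL3A1, DCN and LUM) to 6.07 (COL1A2) in the nuclei. In the hem and choroid plexus-like type COL1A1 was at 27.0 CPM in the cells and 32.1 in the nuclei. Of the 7 mesenchyme markers, 3 were past the naming limits for this type in the cells. In the nuclei 4 were, enough for the mesenchyme name, beside 4 hem markers. Markers of endothelium summed to 7.29, 37.8 and 43.4 CPM in the same types of the cells and to 2.97, 4.37 and 4.49 in the nuclei. Microglia markers summed to 5.45, 13.9 and 24.5 CPM and to 4.39, 9.18 and 29.8. Their part in the levels of WWTR1 and CCN2 was not tested. The choroid plexus markers themselves summed to 13676 CPM in choroid plexus-like cells and 28649 in the nuclei.

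By the size rule (at least 2-fold, with at least 20 counts in both types together), YAP1, TEAD2, TEAD3, LATS2, CCN1 and CCN2 were higher in RG-like than in excitatory neuron-like cells, 6 of 10 members, and none was lower. Of all 24662 genes past the count minimum, 8.21% were higher and 8.1% lower by this rule. In the nuclei the same 6 members together with TEAD1 and TEAD4 were higher, 8 of 10, and none lower, where 19.4% of 20348 genes were higher and 10.9% lower. WWTR1 and LATS1 stayed under 2-fold in both libraries. Between choroid plexus-like and RG-like cells, WWTR1 and CCN2 were higher and TEAD2 lower, against 12.8% of genes higher and 8.38% lower. Between the same types of the nuclei, WWTR1, LATS2 and CCN2 were higher and TEAD4 and CCN1 lower, against 13.8% of genes higher and 24.9% lower. The 2 contrasts share the RG-like barcodes.

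**Figure D5:**
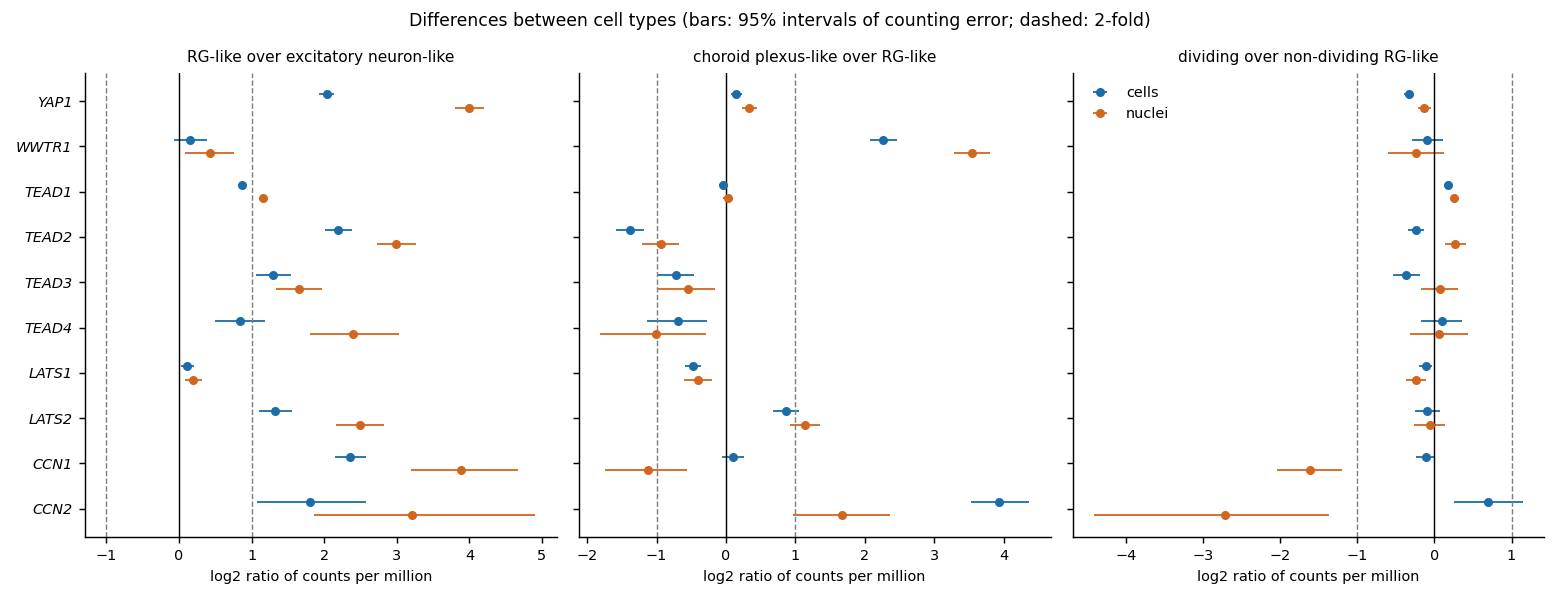
Log2 ratio of CPM (horizontal axis) of each member (vertical axis) for RG-like over excitatory neuron-like, choroid plexus-like over RG-like and dividing over other RG-like barcodes, in the cells and the nuclei. Bars are 95% exact conditional binomial intervals and dashed lines mark 2-fold. YAP1 is at 2.03 and 4.00 in the contrast with neurons and within 2-fold in the others, and WWTR1 is at 2.27 and 3.54 between choroid plexus-like and RG-like barcodes.

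The direction of CCN1 between choroid plexus-like and RG-like nuclei was not stable across settings. It was at 7.66 (5.13 to 11.0) and 16.7 CPM (2.18-fold lower, log2 −1.13, −1.74 to −0.57, 29 against 225 counts), yet higher in 3 of 5 wells. Without the immediate-early and heat shock clusters the log2 ratio was 0.09, with thinned barcodes 0.32 and at the coarser clustering −0.06. It was −0.90 at the finer clustering, −0.98 without the highest doublet scores and −0.88 with median of ratios scaling. The immediate-early genes summed to 306 CPM in RG-like and 62.3 in choroid plexus-like nuclei.

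Most members differed little between dividing RG-like and other RG-like barcodes. In the cells, none of the 10 members was past 2-fold in either direction between dividing and other RG-like barcodes, where 5.72% of genes were higher and 1.84% lower. YAP1 was at 168 against 211 CPM (log2 −0.33, −0.39 to −0.26, lower in 12 of 16 wells), which became 0.05 at the finer clustering, where the dividing type held 1983 barcodes. The 4 dividing clusters of the cells were uneven, at 136, 155, 197 and 240 CPM of YAP1, and the lowest, of 618 deep barcodes (median 12987.5 transcripts), had 2 of the 7 RG markers past the naming limits. In the nuclei the log2 ratio of YAP1 was −0.13 (−0.21 to −0.05), with the dividing type higher in 8 of 12 wells. TEAD1 was at 421 against 371 CPM in the cells (0.18), higher in 8 wells and lower in 8. The widest value was that of CCN2 (log2 0.69, 0.26 to 1.15, higher in 9 wells, lower in 4 and tied in 3). In the nuclei, CCN1 and CCN2 were lower in dividing RG-like nuclei and no member was higher, where 3.44% of genes were higher and 11.1% lower. TEAD1 was higher in 12 of 12 wells by less than the rule (log2 0.26, 0.21 to 0.30). TEAD2 had a log2 ratio of 0.27 (0.13 to 0.41), yet was lower in 9 of 12 wells.

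The levels of CCN1 and CCN2 in dividing RG-like nuclei are given beside those of the immediate-early genes. CCN1 was at 5.48 CPM in dividing RG-like nuclei (4.203 to 7.03), 3.05-fold lower (log2 −1.61, −2.04 to −1.20, 62 against 225 counts), and lower in 7 wells, higher in 4 and tied in 1. CCN2 had 5 counts against 39 (6.56-fold lower, log2 −2.71, −4.41 to −1.37). The immediate-early genes summed to 93.2 CPM in dividing against 306 in other RG-like nuclei, and 8 of 8 were lower by the size rule. Without the immediate-early and heat shock clusters the log2 ratios were −0.39 for CCN1 and 0.03 for CCN2, and at the coarser clustering that of CCN1 was −0.48. In the cells, none of the 8 immediate-early genes was past the rule in this contrast and their median log2 ratio was 0.07. CCN1 was there at 49.9 CPM in dividing and 54.0 in other RG-like barcodes. The part of the immediate-early genes in these differences was not tested.

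The RG-like types of the 2 libraries were set side by side as values, since days, organoids and the use of cells or nuclei differ between them and cannot be told apart. YAP1 was at 215 CPM in the nuclei and 211 in the cells (log2 0.03, −0.05 to 0.10). TEAD1 was 1.60-fold higher in the nuclei (0.68, 0.63 to 0.73), WWTR1 1.69-fold lower (−0.76, −1.05 to −0.47) and LATS1 lower by less (−0.40, −0.51 to −0.30). CCN1 was 3.23-fold lower in the nuclei (−1.69, −1.91 to −1.47), the only member past the rule, where 1.31% of 21929 genes were higher and 17.9% lower. Without the immediate-early and heat shock clusters of the nuclei the log2 ratio was −2.91 for CCN1 and −3.12 for CCN2, which was −0.37 (−1.01 to 0.25) with them. At the coarser clustering they were −2.41 and −1.09.

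Other genes of the pathway were taken from fixed lists. Of 16 upstream Hippo genes, 3 were higher in RG-like than in excitatory neuron-like cells (8.21% of all genes) and none lower, with a median log2 ratio of 0.08, the same as that of all tested genes. In the nuclei 4 were higher, near the 19.4% of all genes, and none lower, with a median of 0.23 against 0.24 for all genes. STK3, the MST2 kinase that activates LATS1 and LATS2, was at 291 against 76.7 CPM in the cells (log2 1.92) and 378 against 25.2 in the nuclei (3.91). The scaffold WWC2 had log2 ratios of 1.14 and 1.83 and FRMD6 of 1.01 and 1.90.

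Of 12 regulators and partners of YAP and TAZ, 10 had enough counts, of which 3 were higher in the cells (8.21% of all genes) and 5 in the nuclei (19.4%) and none lower, with medians of 0.46 and 0.85 against 0.08 and 0.24 for all tested genes. They include AJUBA and LIMD1, LIM domain proteins that bind LATS kinases, and PTPN14, a phosphatase that binds YAP. AJUBA was at 10.7 against 2.01 CPM in the cells (log2 2.41) and 9.37 against 0.753 in the nuclei (3.64). PTPN14 had log2 ratios of 1.30 and 2.43 and LIMD1 of 1.18 and 1.64.

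Of 19 further YAP and TAZ target genes, 17 had enough counts in the cells and 16 in the nuclei. In the contrast of RG-like with excitatory neuron-like barcodes, 5 were higher and 1 lower in the cells (8.21% and 8.1% of all genes), with a median of 0.58 against 0.08. In the nuclei 10 were higher and 1 lower (19.4% and 10.9% of all genes), with a median of 1.26 against 0.24. AXL, a receptor tyrosine kinase, was at 32.2 against 10.5 CPM in the cells (1.61) and 25.6 against 5.08 in the nuclei (2.33). F3, tissue factor, had log2 ratios of 1.12 and 2.70, CCDC80 of 1.21 and 2.57, RBMS3 of 1.05 and 1.496 and PTPN14, which is in both lists, the values given above. IGFBP3, which binds insulin-like growth factors, was the gene that was lower, with 2 against 18 counts in the cells (−2.57, −5.72 to −0.51) and 2 against 20 in the nuclei (−3.08, −6.22 to −1.04).

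Between choroid plexus-like and RG-like cells, 8 of 17 targets were higher (12.8% of all genes) and 1 lower (8.38%), with a median of 0.65 against −0.12 for all tested genes. In the nuclei 6 of 15 were higher (13.8% of all genes) and 2 lower (24.9%), with a median of −0.01 against −0.37. MYOF, which encodes the membrane repair protein myoferlin, was at 102 against 5.52 CPM in the cells (log2 4.204) and 218 against 1.71 in the nuclei (6.997). RBMS3 had log2 ratios of 2.51 and 3.46, DOCK5 of 2.53 and 2.28, PTPN14 of 2.36 and 2.85 and F3 of 2.09 and 4.14. Among the upstream genes, none was higher, and 3 of 16 were lower in the cells, against 8.38% of all genes, and 5 of 16 in the nuclei, near the 24.9% of all genes. Of these, the atypical cadherin FAT4 had −1.26 and −2.84, FRMD6 −1.10 and −2.19 and STK3 −1.03 and −1.09. Of 10 regulators and partners, 1 was higher and none lower in the cells, with a median of −0.03 against −0.12 for all tested genes. In the nuclei 2 were higher and 1 lower, with a median of 0.54 against −0.37. The genes named for this contrast were chosen after their values were seen. Between dividing and other RG-like barcodes no gene of the 5 lists was past the rule in the cells. In the nuclei 6 of 15 targets were lower, against 11.1% of all genes, and none higher (median −0.49 against −0.18), beside the immediate-early sums given above. Of the other lists there, 2 of 10 regulators and partners and 1 of 7 hypoxia and glycolysis genes were lower and none higher. No upstream gene was past the rule.

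Immediate-early and hypoxia genes were followed as signs of handling and stress. Of 8 immediate-early genes, 5 were higher in RG-like than in excitatory neuron-like cells (FOSB, log2 2.62, EGR1, 2.13, FOS, ATF3 and IER2) and 7 in the nuclei (FOSB 4.39, EGR1 3.86), against 8.21% and 19.4% of all genes. Their sum was 572 CPM in RG-like, 648 in dividing RG-like, 561 in hem and choroid plexus-like, 411 in choroid plexus-like and 197 in excitatory neuron-like cells, and 51.7 in excitatory neuron-like nuclei. None of 7 hypoxia and glycolysis genes was past the rule in the cells and 2 were higher in the nuclei.

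The genes whose levels over clusters were most like those of YAP1, by the lower of the Pearson correlations over 24 clusters of the cells and 20 of the nuclei among 11001 genes, were ITGA6 (r of 0.93 in the cells and 0.97 in the nuclei), COL4A5 (0.90 and 0.94), REST (0.90 and 0.89), MYO1E (0.89 and 0.96) and KIF13A (0.89 and 0.96). ITGA6 encodes an integrin subunit that binds laminin, COL4A5 a basement membrane collagen and REST a repressor of neuronal genes. For WWTR1 they were ITGB5 (0.89 and 0.90), an integrin subunit, followed by RHOH, MAF, HSD17B14 and PDZRN3, and for TEAD1 MAGI1 (0.86 and 0.84), LRRN1, STON2, PARD3B and HELLS. Among the members, YAP1 had r of 0.73 and 0.88 with LATS2, 0.80 and 0.71 with CCN1 and 0.51 and 0.42 with WWTR1. WWTR1 had 0.75 and 0.53 with LATS2 and 0.65 and 0.67 with CCN2. The r of YAP1 differed between the libraries for TEAD3 (0.17 and 0.84) and TEAD4 (0.34 and 0.87). Clusters of a library share its wells and free RNA, so the correlations are descriptions.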

How the data were processed

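Single cells and nuclei of H9 brain organoids were barcoded by split-seq. Per the study's methods, reads were split into 8 sub-libraries for the cells and 2 for the nuclei with 1 mismatch allowed, and the Parse Biosciences software aligned them to GRCh38. The authors deposited the transcript counts of every barcode and gene unfiltered and unscaled, so that free RNA is included. Over all barcodes, the cells held 254967545 transcripts and the nuclei 82339738. The kept barcodes held 157306492 and 72162726 of these, which limits the genes with few counts most. The mitochondrial limit removed 95 and 28 barcodes that passed the other limits.

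Counts were scaled to 10000 per barcode, and 2000 variable genes, without the members and pathway lists, gave 30 principal components, 15 neighbours and Leiden clusters (resolution 1, seed 0; scanpy 1.11.5, leidenalg 0.10.2, igraph 0.11.9, scikit-learn 1.9.0). A cluster of at least 50 barcodes took the name of a type when at least 3 and over 50% of its markers were at 1.5-fold and 20 CPM or more. Clusters that met choroid plexus and hem markers took the joint name even if they met a further list. Those that met only intermediate progenitor and neuron markers took the newborn neuron name. Those that met dividing markers, alone or with RG markers, were called dividing RG-like. Others that met more than 1 type stayed unnamed. This rule was set after the clusters were seen. Scrublet marked 0 barcodes and was taken not to have worked, so all barcodes were kept, and an alternative left out the highest scores (5% and 3%).

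Each library was 1 sample, so no p-values were computed. Ratios carry exact conditional binomial intervals, and a gene was past the size rule at 2-fold with at least 20 counts. For counts of 0, a limit of 3 counts was used. The size rule and the intervals were tested on simulated counts with counting error only, which left out clustering, naming and variation between wells. Software was pandas 2.3.3, scipy 1.17.1 and numpy 2.4.6 under Python 3.11.15, with matplotlib 3.10.9 for plots. The members, gene lists and comparisons were chosen with earlier results of these data known. All 10 members are named. List genes are named when past 2-fold between RG-like and excitatory neuron-like barcodes in both libraries (at most 8 a list), genes named for the choroid plexus contrast were chosen after their values were seen, and like genes are the 5 with the highest lower correlation of log2(CPM + 1) for each of YAP1, WWTR1 and TEAD1. Alternatives were other clusterings, filters, thinning to 1000 transcripts, subtraction of the background profile, scaling and thresholds. With members and pathway genes allowed among the variable genes, 0 members were among them in the cells and 1 in the nuclei. Leaving out repeated barcodes or single clusters was added after seeing the data.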

Additional observations from a re-analysis of the deposited data

Results flagged for a closer look

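Barcodes over the mitochondrial limit of 20% entered no comparison. They held members at levels above what 3 counts allow. In the 95 such barcodes of the cells, YAP1 was at 224 CPM, WWTR1 at 86.4, TEAD1 at 282, TEAD2 at 11.9 and TEAD3 at 19.4. LATS1 was at 37.3 CPM, LATS2 at 38.7, CCN1 at 56.6 and CCN2 at 67.1 in these barcodes. In the 28 such barcodes of the nuclei, YAP1 was at 138 CPM, TEAD1 at 396, LATS1 at 103 and LATS2 at 68.9. The types of these barcodes were not assigned.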

How the results depend on the processing

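The number of members higher between RG-like and excitatory neuron-like barcodes ranged from 4 (3-fold) to 8 (1.5-fold) in the cells and from 7 to 8 in the nuclei. The share of all genes was computed at 2-fold only, so no count at 1.5-fold or 3-fold in this section can be set against it. Of the alternatives for all 7 counts of higher members, 94 planned and 18 added ones stayed within 1.5 times and 4 moved. The count for choroid plexus-like over RG-like fell from 2 to 1 in the cells with members and pathway genes allowed among the variable genes. In the nuclei it fell from 3 to 1 with thinned barcodes. At 1.5-fold, 1 member (CCN2) was higher in dividing than in other RG-like cells and 1 (TEAD1) in RG-like nuclei than cells, both from 0. Among members past the size rule, directions turned in the nuclei for TEAD4 between choroid plexus-like and RG-like (0.0174 at resolution 2), for CCN1 in that contrast (0.32 thinned and 0.0897 without the immediate-early and heat shock clusters) and for CCN2 between dividing and other RG-like nuclei (0.0345 without those clusters). The cause was not tested. Of the values of single members, 623 planned and 156 added stayed within their interval and 145 and 22 moved. In all, 46 member values took the other sign, 4 of them the turned directions above and 42 of members whose main value was within 2-fold, such as TEAD3 between choroid plexus-like and RG-like nuclei (0.17 at resolution 2), TEAD1 there (−0.08 without the immediate-early and heat shock clusters) and YAP1 and TEAD2 between dividing and other RG-like cells (0.05 and 0.22 at resolution 2). After subtraction of the background at 10%, YAP1 in excitatory neuron-like nuclei was at the floor, so its log2 ratio of 10.06 is only a bound. Depth limits CCN2, CCN1 and TEAD4 in the nuclei (182, 447 and 468 counts). No paired analysis was possible because each library is 1 sample, and types were set against each other within wells only as counts of wells in each direction.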

Other observations

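Some clusters that took no name held high levels of members. In the cells, CCN2 was at 72.3 CPM (36.1 to 129) in a cluster of 91 barcodes led by the YAP target MYOF, 95.6% of them from 1 well, and at 219 CPM (100.1 to 416) in a cluster of 33 barcodes that all came from 1 well. WWTR1 was at 147 CPM (121 to 176) in a cluster of 101 cells led by DCT and holding PAX3, and at 124 CPM (101 to 149) in a cluster of 171 nuclei led by PAX3. PAX3 marks dorsal neural tube and neural crest, and DCT is a gene of pigment cells.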
